A study of Homo sapiens with 13 samples.

Results

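The genes described here are the chaperones of the endoplasmic reticulum (ER) and the unfolded protein response, measured in HepG2 liver cancer cells and in HepG2S1 cells. The list held 37 genes, and 36 of them had an array row that the platform annotation assigned to that gene alone, out of 18377 genes tested. The rows of PDIA3 were shared with a pseudogene, and PDIA3 is not analysed here. P4HB had 2 rows of its own, and the row with the higher mean over the arrays was used. The list names genes by function and not by a threshold on these arrays, though it was drawn up with earlier results of these data known. Each of the 13 samples was 1 culture flask on 1 Affymetrix whole-transcript array. The first group was HepG2 without drug at 20% O2 (n = 3; arrays 1, 2 and 3 by their labels). HepG2S1 is the line which, by the title of the series, came from long exposure to sorafenib, a kinase inhibitor given for liver cancer. It was grown with 6 µM sorafenib at 20% O2 (n = 4; arrays 6, 7, 9 and 10), withdrawn from the drug at 20% O2 (n = 3; arrays 13, 14 and 15), or with 6 µM sorafenib at 2% O2 (n = 3; arrays 16, 17 and 18). Flasks of all 4 groups were harvested after 72 h in the same culture medium. Whether HepG2S1 is 1 clone is not given in the sources used here, and 2% O2 was measured with the drug only.

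A protein that enters the secretory pathway is threaded through the Sec61 channel into the ER, where BiP and its J-domain partners, the lectin chaperones and the disulfide isomerases help it fold. Proteins that fail are pulled back to the cytosol and degraded (ER-associated degradation), and those that fold leave in COPII vesicles. When unfolded proteins build up, the sensors IRE1, ATF6 and PERK raise the capacity of this system: IRE1 splices the XBP1 message, ATF6 is cut in the Golgi into a transcription factor, and PERK slows translation and raises ATF4 and CHOP. Hepatocytes secrete most plasma proteins and are rich in this machinery.

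Values are log2 expression levels, 1 per gene and array. A log2 fold change (log2 FC) is the mean of the first-named group minus that of the second, and a gene passed when its adjusted p in limma, with Benjamini-Hochberg adjustment over all 18377 genes, was under 0.05. Array values of the members ran from 7.83 for DERL3 to 13.45 for CANX, against a lower quartile of 5.76 for the table as a whole (median over arrays), and their SD within a group had a median of 0.050. In such bulk samples, fewer cells of a type and less RNA per cell cannot be told apart. Array medians lay between 7.30 and 7.42. No scan date or batch was given, so batch and group cannot be told apart.

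The labelled cell type was checked first, because it bears on each comparison with HepG2. Of 9 hepatocyte and HepG2 markers measured, 9 were lower in HepG2S1 with sorafenib than in HepG2. Their mean log2 level was 12.48 to 12.53 on the HepG2 arrays, 6.23 to 6.29 on the HepG2S1 arrays with sorafenib at 20% O2, 6.18 to 6.26 after withdrawal and 6.12 to 6.18 at 2% O2. The defining markers AFP and ALB were below the lower quartile of the table in all 3 HepG2S1 groups. Of 8 fibroblast and stellate markers, 3 were higher and 1 lower in HepG2S1 with sorafenib, and 4, among them the collagens COL1A1, COL1A2 and COL3A1, did not pass. The matrix genes DCN and LUM were higher by 5.43 and 5.01 on the log2 scale, while RELN, a secreted matrix protein, had a log2 FC of -5.76. Of 7 endothelial and blood markers, 1 was higher and 3 were lower. In this comparison 30.1% of all genes were higher and 27.2% lower. HepG2S1 arrays were thus far lower in the markers that define HepG2, and in the comparisons with HepG2 the line, its drug history and the drug present cannot be told apart. The part of these markers in the results was not tested.

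Promoters of the members are shown because the stress sensors act on known DNA elements. In RefSeq windows of GRCh38.p14, from 250 bases before to 50 bases after a gene's start, 3 elements were searched on both strands: the ER stress response element (ERSE, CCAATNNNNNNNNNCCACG), its variant ERSE-II (ATTGGNCCACG) and the unfolded protein response element core (UPRE core, TGACGTGG). Windows were used for 33 of the 36 members (all but DERL1, DERL3 and SEC24D) and for 27305 genes in all, the members included. ERSE was found in 7 members (CALR, CANX, CRELD2, HSP90B1, HSPA5, PDIA6 and XBP1) and in 25 genes (0.0916%) overall. ERSE-II was found in 3 members (HERPUD1, HYOU1 and SDF2L1) and in 19 genes (0.0696%), and the UPRE core in 2 members (DNAJC10 and HYOU1, where it overlaps an ERSE-II) and in 253 genes (0.927%). ERSE or ERSE-II was thus in 10 of 33 members (30.3%) and 0.161% of all genes with a window. Known elements of the stress response were searched in genes listed for that function, so these shares are no independent result. A match describes letters and is no proof of a working site.

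Stretches around the matches are given for 6 members on which the results below turn, 5′ to 3′ in the direction of the gene, with the fixed letters of each element (or of its reverse complement) in capitals. HSPA5 is shown from chr9:125241376-125241424 (minus strand), XBP1 from chr22:28800588-28800636 (minus), HSP90B1 from chr12:103930201-103930354 (plus) and CALR from chr19:12938369-12938417 (plus), each with ERSE, which HSP90B1 holds in both orientations. HERPUD1 from chr16:56932010-56932050 (plus) and SDF2L1 from chr22:21642099-21642139 (plus) each hold an ERSE-II.
HSPA5: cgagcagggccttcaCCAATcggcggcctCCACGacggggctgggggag
XBP1: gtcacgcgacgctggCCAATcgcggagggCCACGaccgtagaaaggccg
HSP90B1: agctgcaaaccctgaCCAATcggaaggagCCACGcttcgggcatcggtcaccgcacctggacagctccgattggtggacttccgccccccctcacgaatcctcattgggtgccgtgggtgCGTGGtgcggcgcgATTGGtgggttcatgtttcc
CALR: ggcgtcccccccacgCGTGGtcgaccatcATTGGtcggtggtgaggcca
HERPUD1: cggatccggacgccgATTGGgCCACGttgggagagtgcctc
SDF2L1: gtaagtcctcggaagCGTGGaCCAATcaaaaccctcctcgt
Of the 7 members with ERSE, 5 were higher and 2 (PDIA6 and XBP1) lower in HepG2S1 with sorafenib than in HepG2, where 30.1% of all genes were higher and 27.2% lower. At 2% against 20% O2, 4 of the 7 (HSPA5, CRELD2, CALR and PDIA6) were higher and 3 did not pass (8.99% of all genes higher and 6.17% lower). The HSPA5 call was lost when any 1 of the 7 arrays compared was left out. That of CRELD2 was lost without any 1 of arrays 7, 9, 10, 16, 17 or 18, and that of CALR without array 17. Of the 3 with ERSE-II, HERPUD1 and SDF2L1 fell after withdrawal and HYOU1 did not pass (7.90% of all genes lower). The SDF2L1 call was lost when any 1 of the 7 arrays compared was left out. Both members with the UPRE core were lower with sorafenib than in HepG2. The DNAJC10 call was lost without array 1, 2 or 7, and its arrays overlapped between the groups.

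HepG2S1 with sorafenib differed from HepG2 in most members, in both directions. SEC24D, an adaptor that loads cargo into COPII vesicles, was 2.50-fold higher and the sensor ATF6 1.69-fold higher. XBP1, the transcription factor made by IRE1 splicing, was 1.85-fold lower, and WFS1, an ER membrane protein, 1.59-fold lower. Of 36 members, 16 were higher, 13 lower and 7 did not pass. Over all genes 30.1% were higher and 27.2% lower. Without genes under the 33rd percentile of mean level, 5029 of 12312 genes were higher and 3975 lower. The member counts stayed at 16 and 13 there, so a large share of the better-expressed genes differed too. The median log2 FC was -0.0093 over the members and 0.014 over all genes. Changes were small for most members: 31 of 36 differed by less than 1.5-fold, and SEC24D alone exceeded 2-fold. Of all 18377 genes, 13111 differed by less than 1.5-fold, and 2896 passed with a change of at least 2-fold. The arrays of the groups did not overlap for 28 of the 29 members that passed (96.6%), DNAJC10 being the exception. Over all genes, 53.9% passed without overlap, which is 94.1% of those that passed.

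Withdrawn HepG2S1 cells, compared with HepG2 with both drug-free at harvest, also differed from HepG2 in most members: XBP1 was 1.94-fold lower and SEC24D 1.44-fold higher. Here 15 members were higher, 15 lower and 6 did not pass, against 29.6% higher and 27.0% lower over all genes. Without genes under the 33rd percentile of mean level, 15 members were higher and 16 lower, against 5023 and 3888 of 12312 genes. The median log2 FC was -0.014 over the members and -0.0085 over all genes. This comparison shares the HepG2 arrays with the one above, so the pair of counts is given side by side only. The line, and the drug it had met before, cannot be told apart here either.

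**Figure D1:**
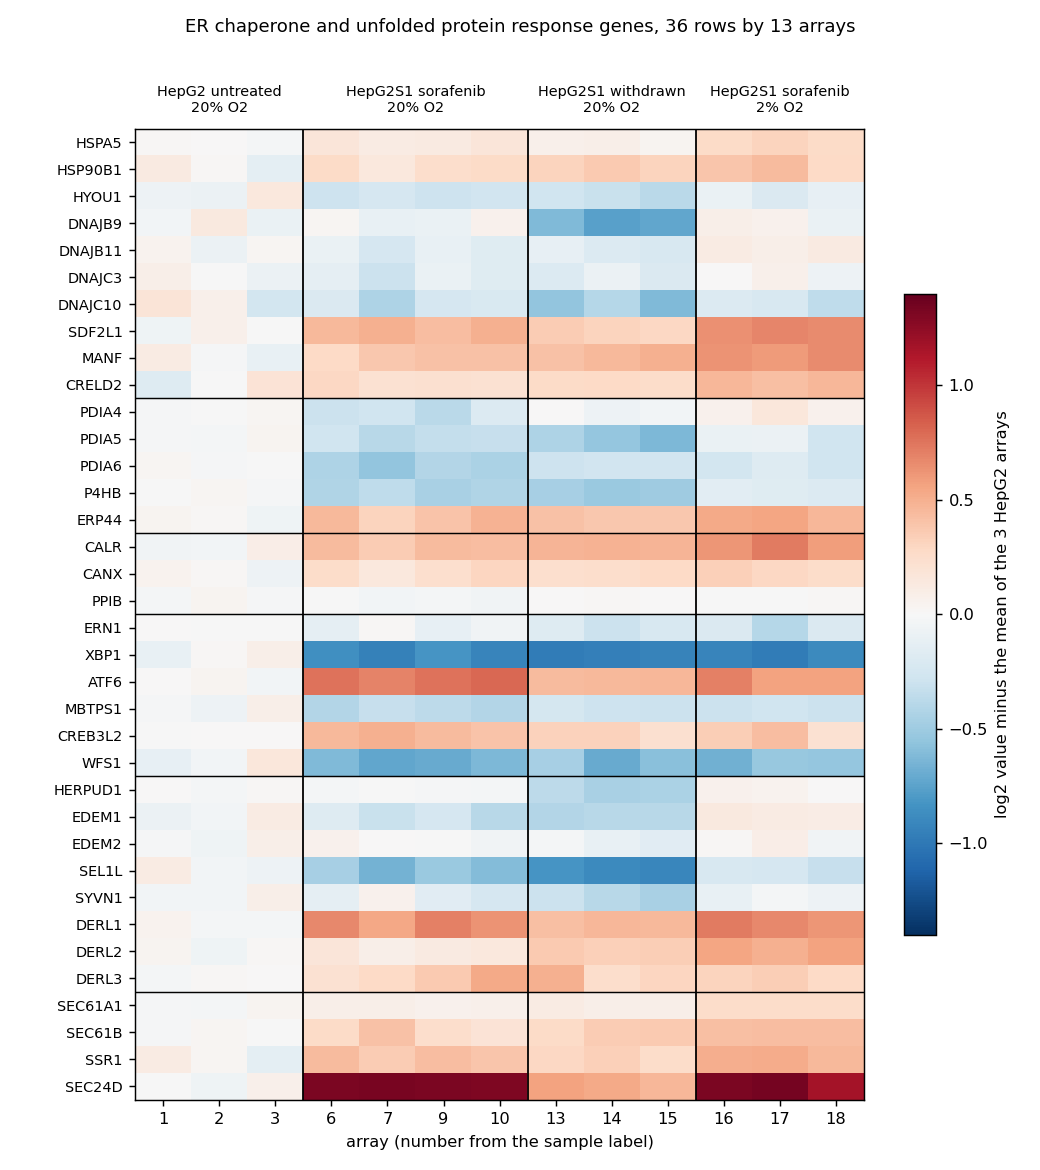
Log2 values of the 36 measured members (rows, grouped by role with black lines) on the 13 arrays (columns, grouped by treatment), each minus the mean of the 3 HepG2 arrays of that gene; red is higher and blue lower. SEC24D, with group means of 11.16 and 10.36 in HepG2S1 with sorafenib and after withdrawal at 20% O2 against 9.83 in HepG2, and XBP1, at 11.50 and 11.43 against 12.39, stand out, and PPIB stays pale on each array.

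After sorafenib was withdrawn from HepG2S1 at 20% O2, more members were lower than higher. SEC24D fell 1.74-fold, the J-domain cochaperone DNAJB9 1.59-fold and the degradation factor HERPUD1 1.32-fold. PDIA4 rose 1.19-fold, DERL2 1.16-fold and PDIA6 1.14-fold. In all, 3 members were higher, 9 lower and 24 did not pass, while 10.1% of all genes were higher and 7.90% lower. The median log2 FC was -0.061 over the members and -0.018 over all genes. Beside this, 2 of 8 fibroblast and stellate markers rose (DCN by 0.82 and LUM by 0.73 on the log2 scale), and 1 of 7 endothelial and blood markers, CD68, had a log2 FC of -0.55. Of 9 hepatocyte markers 1 was higher, and the part of any of these in the result was not tested. The count of members that fell was 5 without array 14 or without array 15 of the withdrawn group, where 995 and 1063 of all genes fell.

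At 2% O2 with sorafenib, several chaperones, disulfide isomerases and degradation factors were slightly higher than at 20% O2 with the drug. The channel protein DERL2 rose 1.32-fold, EDEM1, which draws misfolded glycoproteins out of folding, 1.31-fold, and PDIA4 1.30-fold. Altogether 13 members were higher, 1 (ERN1) was lower and 22 did not pass, against 8.99% of all genes higher and 6.17% lower. The median log2 FC was 0.12 over the members and -0.032 over all genes, and no member reached 1.5-fold. Of all 18377 genes, 18088 stayed under 1.5-fold too. Leaving out single arrays gave 9 to 12 members higher (1077 to 1763 of all genes). Repeated quantile normalization gave 10 (1423 of all genes). With the arrays scaled to a common 75th percentile, 8 members were higher and 3 lower, and the split over all genes turned from 1653 higher and 1133 lower to 1189 higher and 2529 lower. The members' median exceeded that of all genes by 0.15, which this scaling cannot change because it shifts all genes of an array equally. That excess was 0.10 under repeated quantile normalization and 0.12 without genes under the 33rd percentile of mean level. The ERN1 call was lost when any 1 of arrays 7, 9, 10, 16 or 17 was left out, and with these 2 groups fitted alone (adjusted p = 0.0726). Of the 9 hepatocyte markers 1 was lower at 2% O2, and 2 of 8 fibroblast and stellate markers were higher, including DCN by 0.52 on the log2 scale, whose part was not tested.

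The direct comparison of 2% O2 with the drug against withdrawal at 20% O2 tests whether the 2 changes of condition differed from each other, and the 2 groups differ in both drug and oxygen. SEC24D, DNAJB9 and SEL1L were 1.68-fold, 1.65-fold and 1.54-fold higher at 2% O2. In this comparison 15 members were higher, 0 lower and 21 did not pass in limma. At an unadjusted p under 0.05, 24 were higher and 0 lower, against 2872 higher and 2620 lower of all 18377 genes. Over all genes 10.8% were higher and 7.73% lower, and the medians were 0.17 over the members and -0.027 over all genes. Under 75th percentile scaling 13 members were higher and 0 lower, while the calls over all genes turned from 58.4% higher to 48.4% higher. Leaving out single arrays gave 11 to 14 members higher and 0 lower (1451 to 1895 of all genes higher). Beside this, 1 of 8 fibroblast and stellate markers was higher (RGS5 by 0.59) and 2 had a lower level (DCN, log2 FC -0.30, and LUM, -0.64). CD68, 1 of 7 endothelial and blood markers, was higher by 0.69, and APOB, 1 of 9 hepatocyte markers, had a log2 FC of -0.30. The part of these markers in the result was not tested.

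**Figure D2:**
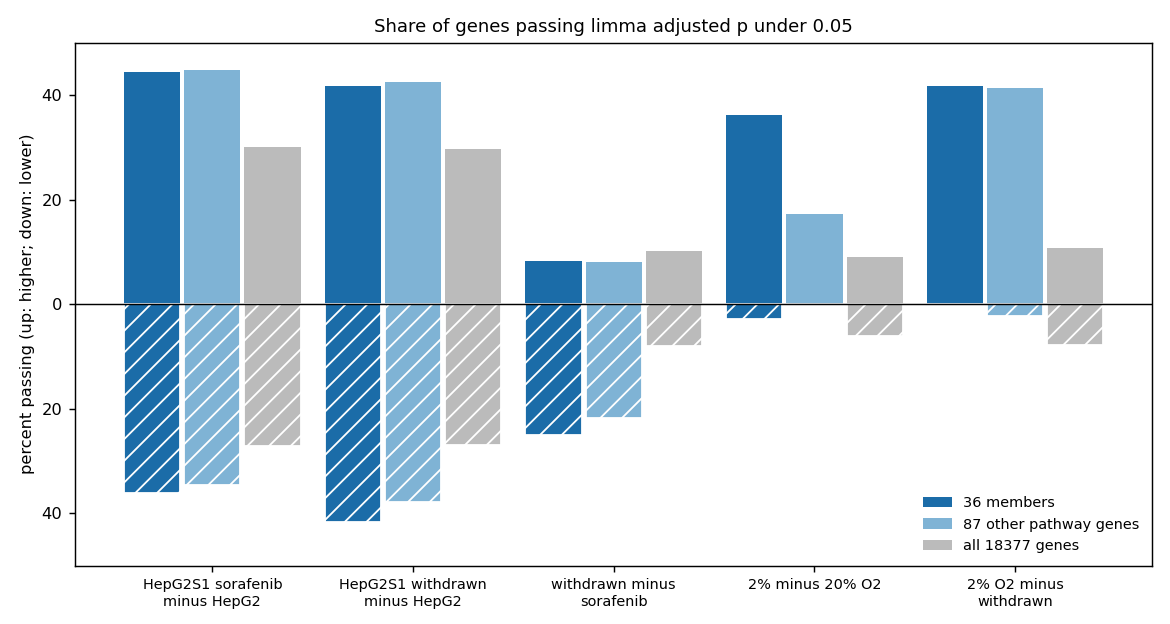
Percent of genes that passed limma's adjusted p of 0.05, higher (upward, plain) or lower (downward, hatched), for the 36 members, 87 other genes of the pathway and all 18377 genes tested, in the 5 comparisons. Members and other pathway genes exceed the all-gene share in both directions against HepG2. The all-gene share includes low-level genes, whereas the lowest member value, 7.83, lies above all array medians (7.30 to 7.42). Without genes under the 33rd percentile of mean level (not plotted), 5029 of 12312 genes were higher and 3975 lower with sorafenib against HepG2. The members were then 16 higher and 13 lower of 36. At 2% against 20% O2, 13 of 36 members passed upward and 1 downward.

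The sensors and transcription factors moved apart from each other. ATF6, the sensor that becomes a transcription factor once cleaved, had values of 11.10, 11.13 and 11.06 in HepG2, 11.86, 11.79, 11.86 and 11.90 in HepG2S1 with sorafenib, 11.54, 11.56 and 11.56 after withdrawal and 11.80, 11.66 and 11.66 at 2% O2. Every HepG2S1 array was above every HepG2 array, and the withdrawn arrays lay between the HepG2 arrays and the other HepG2S1 arrays. Its log2 FC was 0.75, SE 0.051, adjusted p = 2.92e-09 with sorafenib against HepG2, 0.45, SE 0.055, adjusted p = 2.67e-06 for withdrawn cells against HepG2, and -0.30, SE 0.051, adjusted p = 0.00087 for withdrawal. At 2% against 20% O2 the log2 FC was -0.14, SE 0.051, adjusted p = 0.0735, which did not pass. It passed without array 16 and under 5 of the other settings, 75th percentile scaling among them (log2 FC -0.20, adjusted p = 0.0205).

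XBP1, whose spliced message encodes a transcription factor, had values of 12.28, 12.40 and 12.47 in HepG2, 11.53, 11.44, 11.56 and 11.47 with sorafenib, 11.40, 11.43 and 11.45 after withdrawal and 11.46, 11.40 and 11.49 at 2% O2. All 10 HepG2S1 arrays lay below all 3 HepG2 arrays, and the 3 HepG2S1 groups overlapped. The log2 FC against HepG2 was -0.89, SE 0.056, adjusted p = 1.11e-09 with sorafenib and -0.96, SE 0.059, adjusted p = 1.07e-09 after withdrawal. Within HepG2S1 it was -0.07 for withdrawal and -0.048 for 2% O2, neither of which passed. The row gives 1 value per gene, so spliced and unspliced XBP1 messages are not separated.

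ERN1, which encodes IRE1, the enzyme that splices XBP1, had values of 9.35, 9.33 and 9.34 in HepG2, 9.21, 9.36, 9.22 and 9.29 with sorafenib, 9.16, 9.04 and 9.11 after withdrawal and 9.13, 8.94 and 9.14 at 2% O2. HepG2 and HepG2S1 with sorafenib at 20% O2 overlapped, and the other HepG2S1 groups lay lower. Against HepG2 the log2 FC was -0.069, SE 0.061, adjusted p = 0.374 with sorafenib, which did not pass, and -0.23, SE 0.065, adjusted p = 0.00585 for withdrawn cells. At 2% against 20% O2 it was -0.20, SE 0.061, adjusted p = 0.039, and for withdrawal -0.17, SE 0.061, adjusted p = 0.0789, which did not pass. The withdrawal difference passed with array weights (adjusted p = 0.0199), repeated quantile normalization (0.047) and without low-level genes (0.0478).

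Of the other members of this group, MBTPS1, the site-1 protease that cuts ATF6, was lower than in HepG2 with sorafenib (-0.38) and after withdrawal (-0.28). CREB3L2, a membrane-bound relative of ATF6, had values of 10.70, 10.72 and 10.71 in HepG2 and 11.16, 11.20, 11.15 and 11.10 in HepG2S1 with sorafenib, without overlap, and a log2 FC of 0.45, SE 0.056, adjusted p = 3.98e-06. WFS1 had 9.51, 9.58 and 9.78 in HepG2, 9.00, 8.90, 8.92 and 8.99 with sorafenib, 9.15, 8.92 and 9.03 after withdrawal and 8.95, 9.10 and 9.08 at 2% O2. The HepG2 arrays were again the highest, and the 3 HepG2S1 groups overlapped. WFS1 had a log2 FC of -0.67, SE 0.073, adjusted p = 8.06e-07 with sorafenib against HepG2 and -0.59, SE 0.078, adjusted p = 7.85e-06 for withdrawn cells. None of these 3 passed for withdrawal or for 2% against 20% O2. For CREB3L2, withdrawal (-0.16, adjusted p = 0.0656) passed under 6 other settings, with adjusted p from 0.0206 to 0.0461, and 2% O2 (-0.12, adjusted p = 0.164) under 75th percentile scaling (0.0357). In this group of 6, the counts against HepG2 were thus 2 higher and 3 lower with sorafenib and 2 higher and 4 lower after withdrawal. Over all genes 30.1% were higher and 27.2% lower with sorafenib, and 29.6% and 27.0% after withdrawal.

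BiP itself differed little. HSPA5, which encodes BiP, had values of 12.80, 12.80 and 12.76 in HepG2, 12.96, 12.90, 12.91 and 12.95 with sorafenib, 12.86, 12.87 and 12.83 after withdrawal and 13.05, 13.10 and 13.06 at 2% O2. No 2 groups overlapped, and the groups rose in the order HepG2, withdrawn, sorafenib and 2% O2 over a span of less than 0.5 on the log2 scale. The log2 FC was 0.14, SE 0.044, adjusted p = 0.0111 for HepG2S1 with sorafenib against HepG2, where the call was lost under 75th percentile scaling (adjusted p = 0.0785). At 2% O2 it was 0.22, SE 0.047, adjusted p = 0.00428 against withdrawn cells and 0.14, SE 0.044, adjusted p = 0.0457 against sorafenib at 20% O2. The last call was lost when any 1 of the 7 arrays compared was left out, with adjusted p from 0.0519 to 0.161, and under 75th percentile scaling (0.186), repeated quantile normalization (0.0943) or with the 2 groups alone (0.0764). For withdrawal (-0.079) and for withdrawn cells against HepG2 (0.065) HSPA5 did not pass.

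**Figure D3:**
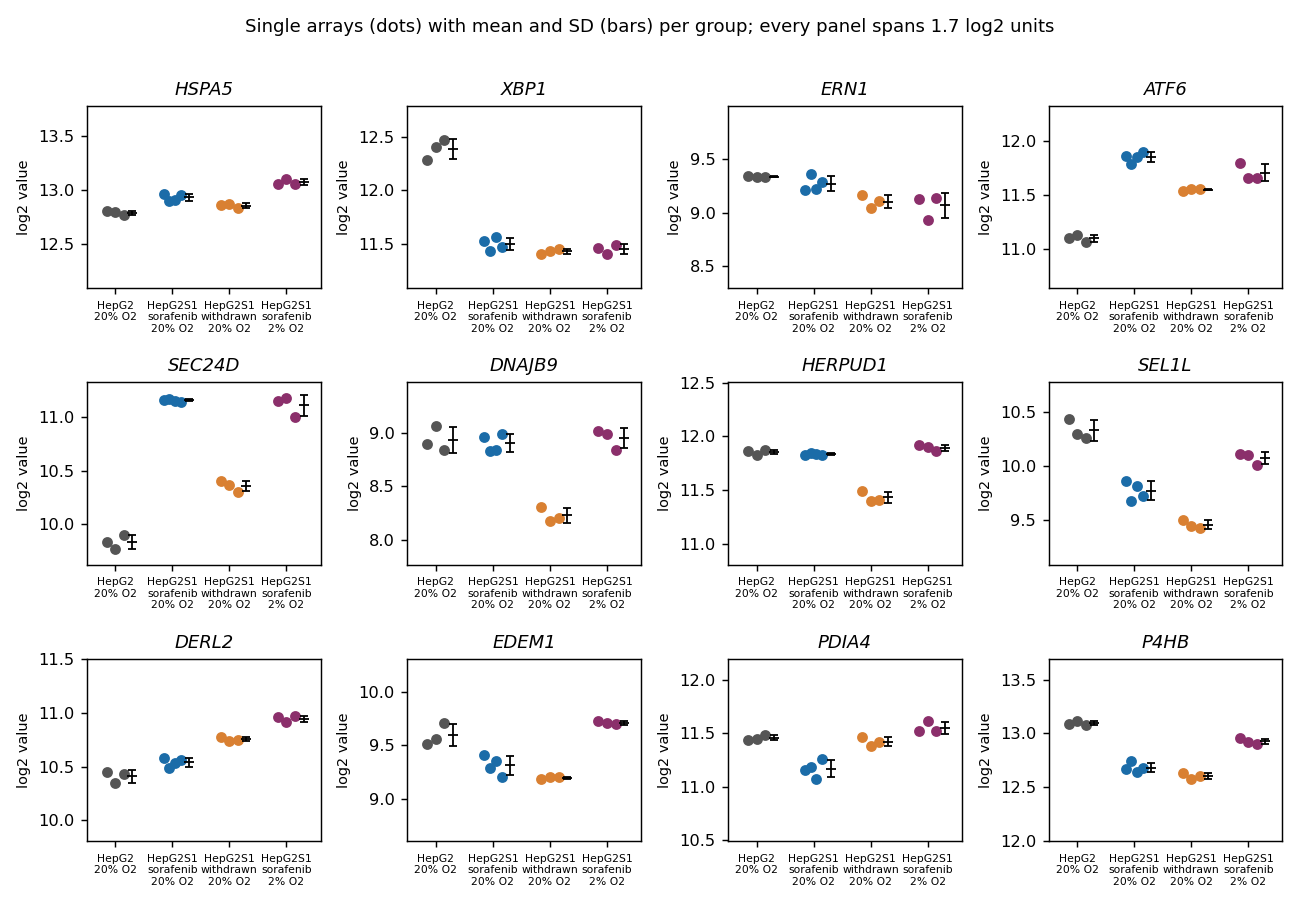
Log2 values of 12 members on single arrays (dots) with group mean and SD (black bars) in HepG2 and in HepG2S1 with sorafenib at 20% O2, withdrawn at 20% O2 and with sorafenib at 2% O2; each panel spans the same log2 range. SEC24D, DNAJB9 and HERPUD1 drop in the withdrawn group alone among the HepG2S1 groups, whereas XBP1 lies between 11.40 and 11.56 on the 10 HepG2S1 arrays.

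Partners of BiP split in the comparison with HepG2. SDF2L1, which binds BiP and its J-domain partners, had values of 8.23, 8.35 and 8.28 in HepG2, 8.74, 8.78, 8.71 and 8.78 with sorafenib, 8.64, 8.60 and 8.58 after withdrawal and 8.92, 8.97 and 8.94 at 2% O2. None of the groups overlapped, and SDF2L1 was lowest in HepG2 and highest at 2% O2. Its log2 FC with sorafenib against HepG2 was 0.47, SE 0.048, adjusted p = 4.4e-07. Its fall on withdrawal was small (-0.15, SE 0.048, adjusted p = 0.0469), and that call was lost when any 1 of the 7 arrays was left out and with trend and robust moderation (adjusted p = 0.0677). Its rise at 2% against 20% O2 (0.19) was lost without array 17 (adjusted p = 0.0689), under 75th percentile scaling (0.0832) and under repeated quantile normalization (0.0585). MANF, an ER stress-induced factor that can be secreted, had values of 10.68, 10.55 and 10.46 in HepG2, 10.84, 10.94, 10.98 and 10.98 with sorafenib, 10.97, 11.02 and 11.07 after withdrawal and 11.19, 11.16 and 11.23 at 2% O2. The arrays with sorafenib at 20% O2 also lay above all HepG2 arrays. On withdrawal the log2 FC of MANF was 0.086, adjusted p = 0.386, which did not pass. MANF was higher in withdrawn cells than in HepG2 by 0.46, SE 0.063, adjusted p = 1.21e-05, without overlap, and rose at 2% against 20% O2 (0.26), a call lost under 75th percentile scaling (adjusted p = 0.0513). The ER chaperone HSP90B1 (GRP94) was higher with sorafenib (0.23) and after withdrawal (0.33) than in HepG2, and so was CRELD2, a stress-induced ER protein (0.23 and 0.26). The CRELD2 call with sorafenib was lost without HepG2 array 1 (adjusted p = 0.0547), and its rise at 2% against 20% O2 (0.22) without any 1 of arrays 7, 9, 10, 16, 17 or 18, under 75th percentile scaling (0.103) and under repeated quantile normalization (0.0914).

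The J-domain cochaperones were lower or did not pass against HepG2. DNAJB9, which hands misfolded proteins to degradation and restrains IRE1, had values of 8.89, 9.07 and 8.84 in HepG2, 8.96, 8.83, 8.84 and 8.99 with sorafenib, 8.31, 8.18 and 8.21 after withdrawal and 9.02, 8.99 and 8.84 at 2% O2. The 3 withdrawn arrays lay below the other 10, which overlapped. The log2 FC for withdrawal was -0.67, SE 0.069, adjusted p = 1.78e-05, and for withdrawn cells against HepG2 -0.70, SE 0.074, adjusted p = 6.27e-07. At 2% O2 DNAJB9 was higher than in withdrawn cells (0.72, SE 0.074, adjusted p = 1.16e-05), while at 2% against 20% O2 with the drug the log2 FC was 0.045 and did not pass.

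DNAJB11, which binds unfolded chains ahead of BiP, had values of 10.23, 10.08, 10.21 and 10.14 with sorafenib at 20% O2 and 10.43, 10.40 and 10.44 at 2% O2. The groups did not overlap, and the log2 FC was 0.26, SE 0.055, adjusted p = 0.00536. Against HepG2, DNAJB11 (-0.15), DNAJC3, an inhibitor of PERK signalling (-0.17), and the disulfide reductase DNAJC10 (-0.27) were lower with sorafenib. These 3 calls were lost without array 7 (adjusted p = 0.0757, 0.0873 and 0.073) and without HepG2 array 1 (0.0961, 0.134 and 0.145). The call of DNAJB11 was also lost without arrays 3 or 10, that of DNAJC3 without 2 or 10 and that of DNAJC10 without 2. DNAJB11 and DNAJC3 also lost their calls with the 2 groups alone (adjusted p = 0.0661 and 0.0576) and with array weights (0.0781 and 0.07). HYOU1, a large HSP70 relative that exchanges nucleotide on BiP, was lower in HepG2S1 with sorafenib (-0.27) and after withdrawal (-0.32). Of the 10 members around BiP, 5 were higher and 4 lower with sorafenib against HepG2 (30.1% and 27.2% of all genes). At 2% against 20% O2, 5 were higher and 0 lower (8.99% and 6.17% of all genes). At an unadjusted p under 0.05 these were 7 higher and 0 lower, against 2724 and 3043 of all 18377 genes.

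Of 5 disulfide isomerases, 4 were lower in HepG2S1 with sorafenib than in HepG2 and 1, ERP44, was higher (27.2% and 30.1% of all genes). P4HB, the founding protein disulfide isomerase, had values of 13.09, 13.12 and 13.08 in HepG2, 12.67, 12.74, 12.64 and 12.68 with sorafenib, 12.63, 12.57 and 12.60 after withdrawal and 12.95, 12.92 and 12.90 at 2% O2. HepG2 was highest without overlap, and the 2% O2 arrays lay between HepG2 and the other HepG2S1 arrays. The log2 FC was -0.42, SE 0.046, adjusted p = 8.98e-07 with sorafenib against HepG2, and 0.25, SE 0.046, adjusted p = 0.0022 at 2% against 20% O2. The other P4HB row gave differences of means of -0.53 and 0.30 in these comparisons.

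PDIA6, an isomerase that also binds BiP, had values of 12.30, 12.26 and 12.27 in HepG2, 11.84, 11.73, 11.86 and 11.83 with sorafenib, 11.99, 12.01 and 12.00 after withdrawal and 12.02, 12.09 and 12.00 at 2% O2. Array values were again highest in HepG2, and among HepG2S1 lowest with sorafenib at 20% O2. The log2 FC was -0.46, SE 0.049, adjusted p = 5.88e-07 with sorafenib against HepG2, 0.19, SE 0.049, adjusted p = 0.0149 for withdrawal and 0.22, SE 0.049, adjusted p = 0.00652 for 2% O2, where the withdrawal call was lost without array 14 (adjusted p = 0.0622).

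PDIA4 (ERp72) had values of 11.44, 11.45 and 11.49 in HepG2, 11.15, 11.18, 11.08 and 11.26 with sorafenib, 11.47, 11.38 and 11.42 after withdrawal and 11.52, 11.61 and 11.52 at 2% O2. It was lowest in HepG2S1 with sorafenib at 20% O2, with no overlap with any other group. PDIA4 rose on withdrawal (0.25, SE 0.054, adjusted p = 0.00398) and at 2% O2 (0.38, SE 0.054, adjusted p = 0.000227), and the difference between 2% O2 and withdrawal (0.13, SE 0.057, adjusted p = 0.144) did not pass. PDIA5 took another course, with values of 9.69, 9.68 and 9.74 in HepG2, 9.43, 9.31, 9.37 and 9.38 with sorafenib, 9.27, 9.16 and 9.08 after withdrawal and 9.61, 9.62 and 9.42 at 2% O2. Its withdrawn arrays were the lowest, and the log2 FC was -0.53, SE 0.066, adjusted p = 4.07e-06 for withdrawn cells against HepG2 and 0.38, SE 0.066, adjusted p = 0.000979 for 2% O2 against withdrawn cells. On withdrawal the log2 FC of PDIA5 was -0.20, SE 0.062, adjusted p = 0.037, a call lost without any 1 of arrays 6, 9, 10, 14 or 15. ERP44, which retains the oxidase ERO1 in the early secretory pathway, was higher in HepG2S1 with sorafenib (0.41) and after withdrawal (0.39).

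Both lectin chaperones were higher in HepG2S1. CALR (calreticulin) had values of 12.10, 12.11 and 12.24 in HepG2, 12.59, 12.50, 12.59 and 12.58 with sorafenib, 12.63, 12.63 and 12.62 after withdrawal and 12.76, 12.87 and 12.73 at 2% O2. HepG2 was lowest and 2% O2 highest, without overlap between any 2 groups. The log2 FC against HepG2 was 0.42, SE 0.053, adjusted p = 4.93e-06 with sorafenib and 0.48, SE 0.057, adjusted p = 2.4e-06 after withdrawal. Its rise at 2% against 20% O2 (0.23, SE 0.053, adjusted p = 0.0113) was lost without array 17 (adjusted p = 0.0688). CANX (calnexin), the membrane-bound lectin, was higher than in HepG2 with sorafenib (0.23) and after withdrawal (0.25) and did not pass within HepG2S1. PPIB (cyclophilin B), a prolyl isomerase, did not pass in any of the 5 comparisons, with log2 FC from -0.03 to 0.039.

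**Figure D4:**
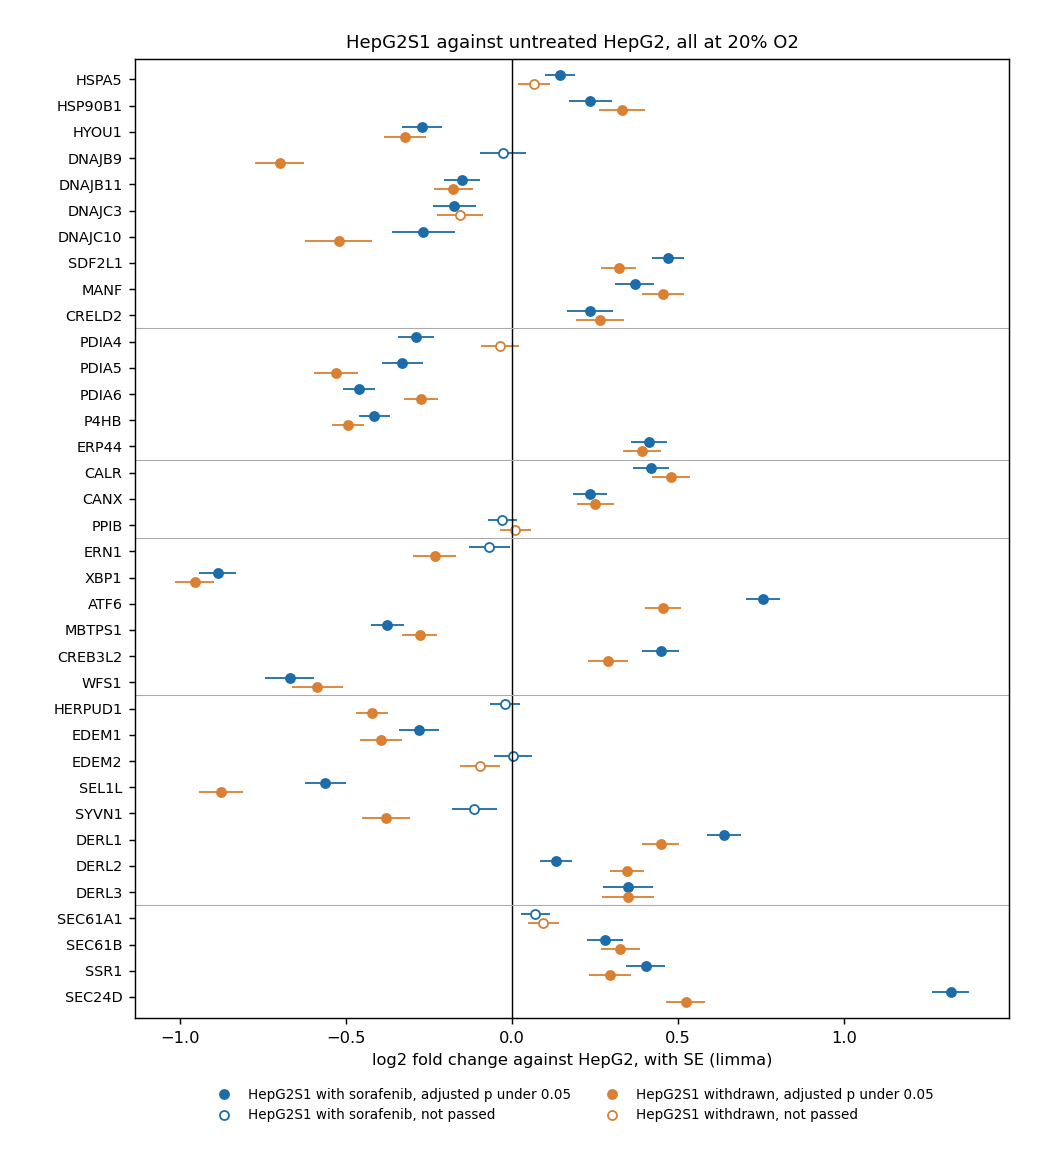
Log2 fold change with SE from limma of the 36 members (rows, grouped by role) in HepG2S1 with sorafenib (blue) and withdrawn HepG2S1 (orange), each against the same 3 HepG2 arrays; filled points passed an adjusted p of 0.05. The points run from -0.96 for XBP1 in withdrawn cells to 1.32 for SEC24D with sorafenib.

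The degradation factors held 3 of the 5 members that differed most between 2% O2 and withdrawal. HERPUD1, a scaffold of the degradation complex, had values of 11.86, 11.83 and 11.87 in HepG2, 11.83, 11.84, 11.84 and 11.82 with sorafenib, 11.49, 11.39 and 11.41 after withdrawal and 11.91, 11.90 and 11.86 at 2% O2. The 3 withdrawn arrays stood below the other 10. HERPUD1 had a log2 FC of -0.40, SE 0.045, adjusted p = 3.7e-05 for withdrawal, -0.42, SE 0.049, adjusted p = 1.61e-06 for withdrawn cells against HepG2 and 0.46, SE 0.049, adjusted p = 1.36e-05 for 2% O2 against withdrawn cells. With sorafenib against HepG2 it was -0.021, which did not pass.

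SEL1L, the adaptor of the SYVN1 ubiquitin ligase, had values of 10.44, 10.29 and 10.26 in HepG2, 9.86, 9.67, 9.81 and 9.72 with sorafenib, 9.50, 9.44 and 9.42 after withdrawal and 10.11, 10.10 and 10.01 at 2% O2. The 4 groups did not overlap and ran downward from HepG2 through 2% O2 and sorafenib at 20% O2 to withdrawal. The log2 FC against HepG2 was -0.56, SE 0.062, adjusted p = 8.51e-07 with sorafenib and -0.88, SE 0.066, adjusted p = 1.07e-08 after withdrawal. Within HepG2S1 it was -0.31, SE 0.062, adjusted p = 0.00233 for withdrawal, 0.31, SE 0.062, adjusted p = 0.0039 for 2% against 20% O2 and 0.62, SE 0.066, adjusted p = 1.46e-05 for 2% O2 against withdrawn cells. The ligase SYVN1 (HRD1) itself was lower on withdrawal (-0.27, SE 0.068, adjusted p = 0.0129), a call lost without array 14 (adjusted p = 0.0513) or 15 (0.0672). With sorafenib against HepG2, SYVN1 did not pass (-0.11) but did so without array 7 (log2 FC -0.17, adjusted p = 0.0234).

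EDEM1 had values of 9.52, 9.56 and 9.71 in HepG2, 9.41, 9.29, 9.36 and 9.20 with sorafenib, 9.19, 9.21 and 9.20 after withdrawal and 9.73, 9.71 and 9.70 at 2% O2. The arrays with sorafenib at 20% O2 and the withdrawn arrays overlapped below HepG2, and the 2% O2 arrays lay above both. EDEM1 had a log2 FC of 0.39, SE 0.06, adjusted p = 0.000462 at 2% against 20% O2 and 0.51, SE 0.064, adjusted p = 6.47e-05 against withdrawn cells. EDEM2, a relative that trims mannose, did not pass in any of the 5 comparisons, with log2 FC from -0.10 to 0.12. In withdrawn cells against HepG2 it passed as lower under 75th percentile scaling (log2 FC -0.17, adjusted p = 0.0121) and repeated quantile normalization (-0.15, adjusted p = 0.0168).

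The 3 derlins, channel proteins of the degradation complex, were higher in HepG2S1 than in HepG2 under both drug conditions at 20% O2. DERL1 had values of 11.39, 11.32 and 11.32 in HepG2, 12.01, 11.89, 12.05 and 11.97 with sorafenib, 11.76, 11.81 and 11.80 after withdrawal and 12.07, 12.01 and 11.96 at 2% O2. HepG2 was lowest and the withdrawn group second, with no overlap between them or with the other groups. The log2 FC was 0.64, SE 0.052, adjusted p = 2.99e-08 with sorafenib against HepG2 and 0.45, SE 0.056, adjusted p = 4.16e-06 for withdrawn cells against HepG2. On withdrawal it was -0.19, SE 0.052, adjusted p = 0.0191, a call lost without any 1 of arrays 9, 13, 14 or 15.

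DERL2 had values of 10.45, 10.34 and 10.43 in HepG2, 10.58, 10.49, 10.53 and 10.56 with sorafenib, 10.78, 10.74 and 10.75 after withdrawal and 10.96, 10.91 and 10.97 at 2% O2. The 4 groups did not overlap and rose in that order. DERL2 had a log2 FC of 0.22, SE 0.048, adjusted p = 0.00518 for withdrawal and 0.41, SE 0.048, adjusted p = 4.29e-05 for 2% against 20% O2. Its difference between sorafenib and HepG2 (0.13, SE 0.048, adjusted p = 0.0283) was lost without array 2, 6 or 10, under 75th percentile scaling (adjusted p = 0.141), under repeated quantile normalization (0.052) and with the 2 groups alone (0.0787), and that between 2% O2 and withdrawal (0.19, SE 0.051, adjusted p = 0.0165) without array 14, 15 or 16. DERL3 was higher than in HepG2 by 0.35 with sorafenib and 0.35 after withdrawal and did not pass within HepG2S1. Over the 8 degradation members, 4 fell and 1 rose on withdrawal (7.90% and 10.1% of all genes). At 2% against 20% O2, 3 rose and 0 fell in limma (8.99% and 6.17% of all genes). The counts were also 3 and 0 at an unadjusted p under 0.05, against 2724 and 3043 of all 18377 genes. At 2% O2, 6 were higher than after withdrawal (10.8% of all genes).

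Translocation and export held the largest change of all members. SEC24D had values of 9.83, 9.77 and 9.90 in HepG2, 11.16, 11.17, 11.15 and 11.14 with sorafenib, 10.40, 10.37 and 10.30 after withdrawal and 11.15, 11.18 and 11.00 at 2% O2. HepG2 was lowest, the withdrawn arrays were intermediate, and both groups with sorafenib were highest and overlapped. SEC24D had a log2 FC of 1.32, SE 0.055, adjusted p = 8.45e-12 with sorafenib against HepG2 and 0.52, SE 0.059, adjusted p = 1.37e-06 for withdrawn cells against HepG2. It was -0.80, SE 0.055, adjusted p = 7.54e-07 for withdrawal and 0.75, SE 0.059, adjusted p = 1.03e-06 for 2% O2 against withdrawn cells, and -0.046 at 2% against 20% O2, which did not pass.

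SEC61A1, the pore of the translocation channel, had values of 12.29, 12.29, 12.27 and 12.27 with sorafenib at 20% O2 and 12.46, 12.46 and 12.46 at 2% O2, without overlap. Its log2 FC was 0.19, SE 0.043, adjusted p = 0.0102, a call lost under 75th percentile scaling (adjusted p = 0.0556). Against withdrawn cells it was 0.16, SE 0.046, adjusted p = 0.0245, lost without any 1 of arrays 14, 15, 16, 17 or 18 and under 75th percentile scaling (0.0676). SEC61B, another channel subunit, was higher than in HepG2 with sorafenib (0.28) and after withdrawal (0.33). SSR1, a subunit of the translocon-associated complex, was also higher with sorafenib (0.40) and after withdrawal (0.29), and at 2% O2 against withdrawn cells (0.20, SE 0.063, adjusted p = 0.0382), a call lost without any 1 of arrays 13, 14, 15, 16 or 17 and under 75th percentile scaling (0.0791).

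**Figure D5:**
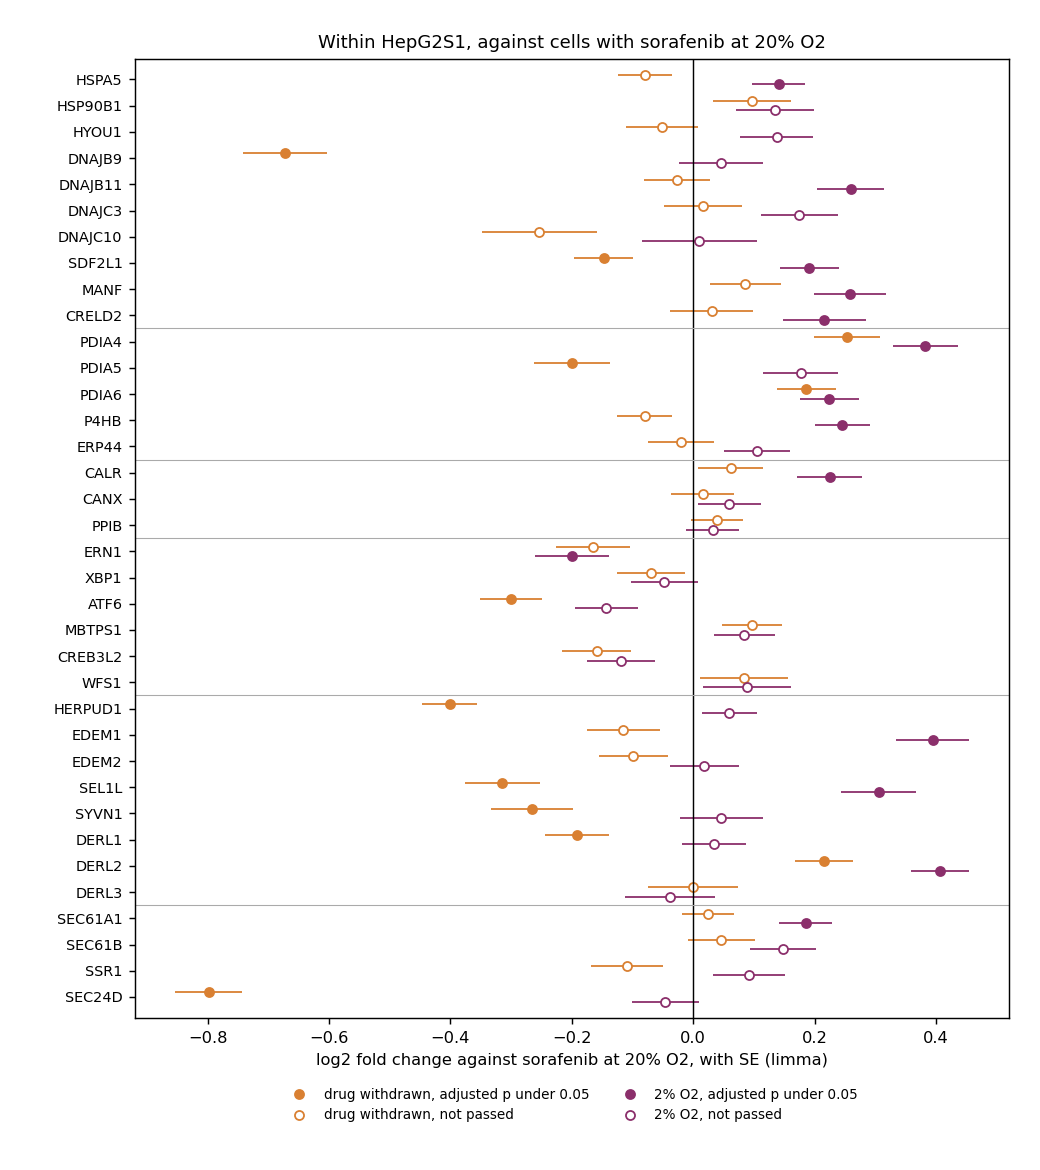
Log2 fold change with SE from limma of the 36 members within HepG2S1, for drug withdrawal (orange) and for 2% O2 with the drug (purple), each against the same 4 arrays with sorafenib at 20% O2; filled points passed an adjusted p of 0.05. DERL2, PDIA4 and PDIA6 are filled to the right in both, SEL1L and SDF2L1 are filled on opposite sides, and SEC24D, DNAJB9 and HERPUD1 are filled to the left for withdrawal alone.

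Further genes of the pathway, 87 that the members do not include, were read from lists of the same kind. With sorafenib against HepG2, 39 were higher, 30 lower and 18 did not pass, beside 30.1% of all genes higher and 27.2% lower. For withdrawn cells against HepG2, 37 were higher and 33 lower (29.6% and 27.0% of all genes). After withdrawal, 7 were higher and 19 lower (10.1% and 7.90%). At 2% against 20% O2, 15 were higher and 0 lower in limma (8.99% and 6.17%). At an unadjusted p under 0.05 there were 28 and 1, against 2724 and 3043 of all 18377 genes. At 2% O2 against withdrawn cells, 36 were higher and 2 lower (10.8% and 7.73%).

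In the PERK and ATF4 arm, 5 of 9 genes were higher and 4 lower with sorafenib against HepG2 (30.1% and 27.2% of all genes). The 4 lower genes were PPP1R15A, ATF3, TRIB3 and SESN2, with log2 FC down to -0.68, so the arm did not move as 1. DDIT3, which encodes CHOP, had values of 8.49, 8.62 and 8.61 in HepG2, 10.75, 10.60, 10.46 and 10.64 with sorafenib, 9.89, 9.79 and 9.84 after withdrawal and 10.96, 10.80 and 10.77 at 2% O2. The 4 groups did not overlap. DDIT3 was 4.10-fold higher with sorafenib than in HepG2 (2.03, SE 0.07, adjusted p = 7.52e-13), fell on withdrawal (-0.77, SE 0.07, adjusted p = 6.35e-06) and was higher at 2% O2 than after withdrawal (1.01, SE 0.075, adjusted p = 5.88e-07). ATF4, the transcription factor above CHOP, fell on withdrawal (-0.69, SE 0.088, adjusted p = 9.74e-05). CHAC1, a glutathione-degrading target of this arm, was higher than in HepG2 (1.32, SE 0.112, adjusted p = 4.44e-08) and rose on withdrawal (0.47, SE 0.112, adjusted p = 0.00876), the opposite direction to ATF4 and DDIT3.

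Among 13 oxidoreductases and BiP exchange factors, 5 rose and 0 fell at 2% against 20% O2 in limma (8.99% and 6.17% of all genes). At an unadjusted p under 0.05, 7 rose and 0 fell, against 2724 and 3043 of all 18377 genes. ERO1A, the oxidase that recharges the disulfide isomerases, had values of 11.31, 11.19 and 11.09 in HepG2, 10.51, 10.39, 10.56 and 10.49 with sorafenib, 10.96, 10.98 and 10.93 after withdrawal and 11.76, 11.83 and 11.57 at 2% O2. Its 2% O2 arrays were the highest and its arrays with sorafenib at 20% O2 the lowest. ERO1A rose 2.35-fold at 2% O2 (1.23, SE 0.07, adjusted p = 2.77e-08) and also rose on withdrawal (0.47, SE 0.07, adjusted p = 0.000329), and QSOX1, a secreted sulfhydryl oxidase, rose at 2% O2 (0.60, SE 0.06, adjusted p = 9.19e-06). ERP27, a binding partner of disulfide isomerases, was at a mean of 10.75 in HepG2 and 5.17 in HepG2S1 with sorafenib, the latter under the table's lower quartile.

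In the remaining lists, KDELR3, a receptor that returns escaped chaperones to the ER, was 2.53-fold higher in HepG2S1 with sorafenib than in HepG2 (1.34, SE 0.055, adjusted p = 6.98e-12). It fell on withdrawal (-0.72, SE 0.055, adjusted p = 1.44e-06) and rose at 2% O2 (0.26, SE 0.055, adjusted p = 0.00496). SEC23A, the COPII partner of SEC24 proteins, was lower than in HepG2 (-1.07, SE 0.052, adjusted p = 5.99e-11). CLGN, a calnexin relative, fell on withdrawal (-0.98, SE 0.127, adjusted p = 0.000103) and was higher at 2% O2 than after withdrawal (1.15, SE 0.135, adjusted p = 3.69e-05). CREB3L3, a liver-enriched relative of ATF6, was 4.50-fold lower in HepG2S1 with sorafenib than in HepG2 (-2.17, SE 0.089, adjusted p = 6.82e-12).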

How the data were processed

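The 13 arrays (Affymetrix HuGene, 1 flask each) were grouped by the drug and oxygen given in the labels. The authors deposited a single matrix of log2 values; RMA, which subtracts background, quantile-normalizes and summarises probes, is named without a version in the submitters' processing notes. Of its 28926 rows, 19310 carried 1 gene symbol in the platform annotation, 1752 carried several and 7864 none. Entrez IDs served to update the symbols of 19279 rows. Each gene was represented by its row of highest mean, leaving 18377 genes, and no detection calls were given.

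One limma 3.58.1 model (R 4.3.3, lmFit and eBayes) covered all 4 groups, and p-values were adjusted by Benjamini-Hochberg per comparison with a threshold of 0.05. The labels describe separate flasks but not separate cultures, so p-values measure the spread between these flasks, which may be technical, and the number of arrays limits the precision. The members and gene lists were chosen with earlier results of these data known. Of 133 symbols in the other lists, 125 matched a row. Single-array values are given for HSPA5, XBP1, ERN1 and ATF6 and, by rule, for up to 5 highest and 5 lowest passing members per comparison whose arrays did not overlap. From each further list, up to 2 passing genes with the largest change could be named. In the PERK and ATF4 arm the 4 genes lower with sorafenib than in HepG2 are named too.

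Promoter windows came from RefSeq (GRCh38.p14). Results were recomputed with trend and robust variance moderation, with only the 2 groups in question, with only the HepG2S1 arrays, without genes under the 33rd percentile of mean level, with 75th percentile scaling or a second quantile normalization, with array weights, with the mean over a gene's rows, with an adjusted p of 0.01, with a minimum log2 fold change of 0.5 and without each array. On simulated data for 18377 genes, 50 of them changed at each size, the fit for 2% against 20% O2 recovered 10% of genes changed by 0.2, 40% by 0.3, 88% by 0.5 and 98% by 1 on the log2 scale, with 6 false calls of 124. The real comparison had 2786 calls. The Benjamini-Hochberg cutoff is less strict with more calls, so these shares do not carry over to the real data. The plots were made in matplotlib 3.10.9 (Python 3.11.15).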

Additional observations from a re-analysis of the deposited data

Results flagged for a closer look

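Array 7 of HepG2S1 with sorafenib at 20% O2 was marked low by Dixon's outlier rule against the other 3 arrays of its group for 3 members. For HSP90B1 it was at 12.87 against 12.97 to 12.99, for DNAJC10 at 10.90 against 11.09 to 11.13, and for CALR at 12.50 against 12.58 to 12.59. Chance alone marks about 1 in 20 groups of this size in this way, and all 36 members were screened. Without array 7, HSP90B1 and CALR still passed against HepG2 (log2 FC 0.26, adjusted p = 0.00364, and 0.44, adjusted p = 7.61e-06). DNAJC10 no longer passed there (-0.21, adjusted p = 0.073), and its fall on withdrawal, which had not passed with the array (-0.25, adjusted p = 0.0822), did so without it (-0.31, adjusted p = 0.0442). The rise of CALR at 2% against 20% O2 passed without the array too (0.20, adjusted p = 0.0297). Array 7 had a weight of 0.523 in limma's array weights, against 0.915 to 2.01 for the others of its group.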

How the results depend on the processing

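Of 162 member counts under the alternatives, 137 stayed within 1.5 times the count given in the report, 20 fell below that and 5 rose above it. No call of a single member reversed its direction, while 92 member calls were lost and 63 gained over all alternatives. Medians over the members moved by less than the SD within a group in 69 of 71 refits; 75th percentile scaling took that for 2% against 20% O2 from 0.12 to 0.061 and that for withdrawn cells against HepG2 from -0.014 to -0.089. The median with sorafenib against HepG2, close to 0, ran from -0.056 to 0.015 and changed sign in 3 refits. Requiring a log2 fold change of 0.5 left 3 members higher and 3 lower with sorafenib against HepG2, 1 and 6 after withdrawal against HepG2, 0 and 2 for withdrawal, 0 and 0 for 2% against 20% O2, and 4 higher for 2% O2 against withdrawal. Over all genes this left, in the same order, 3224 and 2801, 3268 and 2778, 235 and 195, 376 and 36, and 422 and 172. At an adjusted p of 0.01, 5 members were lower after withdrawal, and 8 were higher and 0 lower at 2% against 20% O2. Over all genes, 847 were lower after withdrawal, and 926 were higher and 372 lower at 2% against 20% O2. For that last comparison 75th percentile scaling gave 8 higher and 3 lower. The 1 lower member became 2 with trend and robust moderation, the 33rd percentile filter, repeated quantile normalization or array weights, and 0 with the 2 groups alone. Leaving out single arrays gave 5 to 9 members lower after withdrawal and 0 to 1 lower at 2% against 20% O2. Over all genes these ranges were 995 to 1279 and 521 to 1378. Members higher at 2% against 20% O2, 13 in the report, were 9 to 12 without single arrays (1077 to 1763 of all genes). Repeated quantile normalization gave 10 (1423 of all genes). At 2% O2 against withdrawal, with 15 in the report, 11 to 14 were higher without single arrays (1451 to 1895 of all genes). The cause of these shifts was not tested. No paired analysis was possible because no 2 groups share a replicate number. Small changes are the least certain, and RMA values carry no detection call. In simulated data for 2% against 20% O2, 10% of genes changed by 0.2 on the log2 scale were recovered. The simulation made 124 calls and the real comparison 2786, so the simulated cutoff was stricter and that share does not carry over.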

Other observations

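Chaperones outside the ER are given here beside those within it. Of 14 cytosolic and mitochondrial chaperones, 7 were higher and 0 lower after withdrawal of sorafenib in limma (8 and 0 at an unadjusted p under 0.05), with a median log2 FC of 0.18. Over all genes 10.1% were higher and 7.90% lower (2826 and 2440 of 18377 at an unadjusted p under 0.05). HSPH1, a cytosolic HSP110 that exchanges nucleotide on HSP70, had values of 10.10, 9.88, 10.03 and 9.99 with sorafenib at 20% O2, 10.41, 10.41 and 10.39 after withdrawal and 9.77, 9.86 and 10.09 at 2% O2. The withdrawn arrays were above all others of HepG2S1, and the log2 FC on withdrawal was 0.40 (SE 0.072, adjusted p = 0.0012). DNAJA1, a cytosolic J-domain cochaperone, also rose on withdrawal (0.49, adjusted p = 0.000258). At 2% O2 against withdrawn cells, 0 of the 14 were higher and 6 lower (0 and 11 at an unadjusted p under 0.05), with a median of -0.20, among them HSPH1 (-0.50, adjusted p = 0.000352) and HSPA4, a relative of HSPH1 (-0.47, adjusted p = 6.68e-05). In the same comparison 15 of the 36 ER members were higher and 0 lower, and 10.8% of all genes were higher and 7.73% lower (2872 and 2620 of 18377 at an unadjusted p under 0.05). Against HepG2, 2 of the 14 were higher and 7 lower with sorafenib (30.1% and 27.2% of all genes), and the small heat shock protein HSPB1 was 3.39-fold higher (1.76, adjusted p = 3.61e-13). The lists share arrays, and the difference between them was not tested.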
